A study of Arabidopsis thaliana with 12 samples.

Results

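The comparison described here set roots carrying 35S:ERF115-SRDX (ERF115-SRDX, 3 libraries) against WT-Col-0 roots (WT, 3 libraries), out of 12 libraries in 4 groups. All plants were 4-day-old Arabidopsis thaliana seedlings grown on 1/2 MS plates, and only the roots were harvested. The 6 libraries were chosen by their labels alone, and 23375 of 37884 genes were expressed enough to test, with 10 or more normalized counts on average across all 12 libraries. The other groups carried 35S:ERF115 (ERF115OX, 3 libraries) or an ERF114 overexpressor (ERF114OX, 3 libraries), and ERF115OX is used below only as the line that expresses the same factor without the SRDX motif. Both transgenes were driven by the viral 35S promoter, which is active in most cell types. The labels do not say how many independent lines were used or whether the libraries came from separately grown plants, so the errors here are those between libraries and may be technical only. WT carried no transgene, and the labels describe no empty-vector control.

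ERF115 is a transcription factor of group X of the ERF family. In the root it is known for driving division and replacement of stem cells around the quiescent centre, and for being switched on beside wounded or dead cells, where it acts with the GRAS protein PAT1. SRDX is a short repression motif derived from plant repressor proteins, and fusing it to an activator is a standard way to make a protein that binds the activator's targets and represses them. Among known outputs of ERF115 are the peptide hormone precursor PSK5 and the wound regulator WIND1.

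Values below are DESeq2 normalized counts, given in the order of libraries 1, 2 and 3 of each group. Log2 changes are on the scale of log2(normalized count + 1), which understates the change of low genes. A gene was called when its limma p-value, adjusted by the Benjamini-Hochberg method over all 23375 genes, was under 0.05, and "rose" and "fell" are used only of called genes. In every called gene whose libraries are listed, the ERF115-SRDX and WT libraries did not overlap unless this is stated. Direct contrasts of ERF115-SRDX with ERF115OX come from the same fit, and each one quoted was called except those of ERF115 and AT1G07887. Because a whole root was sampled, fewer cells of a type and less RNA per cell cannot be told apart.

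The libraries were deep and even, with 47941351 to 48343410 reads on genes in the 6 compared. At this depth 3 reads corresponded to 2.92 to 3.13 normalized counts. ERF115 itself, which is read from both the native gene and the transgene, was at 4.86, 23.4 and 561 in WT and at 84451, 88807 and 83518 in ERF115-SRDX. Every ERF115-SRDX library was far above every WT library, and among the WT libraries WT 3 was the highest. In 14 genes that were at or below 5 on average in WT 1 and WT 2 and at or above 500 on average in ERF115-SRDX, WT 3 held a median of 0.753% of the ERF115-SRDX mean (range 0.479% to 1.66%). The median in WT 1 and WT 2 was 0.103%, and this limit on WT 1 and WT 2 chose the genes while WT 3 was left free, so that a higher WT 3 is in part fixed by the choice. The ERF115OX and ERF114OX libraries, which the choice did not use, held medians of 0.0829% and 0.0775%. For ERF115 WT 3 held 0.655% of the ERF115-SRDX mean. The origin of these reads was not tested. For the genes with the largest rises the log2 change is given with and without WT 3.

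Photosynthetic transcripts separated the groups and also separated ERF115-SRDX 2 from its replicates. The 19 genes of the nuclear photosynthesis list made up 1.74%, 1.19% and 2.43% of normalized counts in WT and 0.0255%, 0.312% and 0.0275% in ERF115-SRDX. The list does not hold every such gene, and LHB1B1, Lhca6 and CA1 are outside it. The lowest WT library thus stayed above the highest ERF115-SRDX library, and ERF115-SRDX 2 stood far above ERF115-SRDX 1 and 3. All 19 photosynthesis genes tested fell, with a median log2 change of -4.78, which was -5.83 without ERF115-SRDX 2 and -2.35 with ERF115-SRDX 2 alone. RBCS1A, a small subunit of Rubisco, was at 78648, 45822 and 100568 in WT and at 348, 12779 and 493 in ERF115-SRDX. RCA, which encodes Rubisco activase, was at 94371, 56260 and 130377 against 1555, 13787 and 1543. All 14 genes of the stomatal lineage and shoot cuticle list fell as well, with a median log2 change of -3.45. ATML1, a regulator of the shoot outer cell layer, was at 2103, 1226 and 1871 in WT and at 51.4, 158 and 61.3 in ERF115-SRDX, and FAMA, which completes guard cells, was at 133, 70.2 and 112 against 0, 6.27 and 0. Both lists describe shoot tissue, and how much shoot tissue each harvest held was not tested. The results below were therefore read in all 3 ERF115-SRDX libraries and refitted without ERF115-SRDX 2 and with a covariate. The covariate was the mean log2 level of the 19 listed photosynthesis genes in each library.

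**Figure D1:**
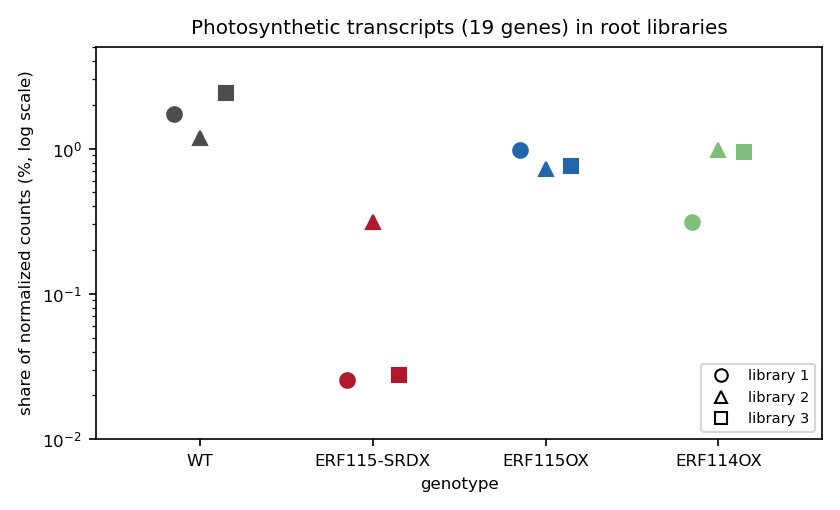
Share of normalized counts taken by the 19 listed nuclear photosynthesis genes (%, log scale) in each library of the 4 groups, 1 point per library. The 3 WT libraries lie between 1.19% and 2.43%, ERF115-SRDX 1 and 3 lie at 0.0255% and 0.0275% and ERF115-SRDX 2 lies at 0.312%.

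ERF115-SRDX roots differed from WT in a large share of the transcriptome. Of the 23375 genes tested 11707 were called, which is 50.1%, with 5478 higher (23.4%) and 6229 lower (26.6%). A log2 change of at least 1 was reached by 1476 genes that rose (6.31%) and 2599 that fell (11.1%). The 3 ERF115-SRDX libraries lay together in most of them. In 11478 of the 11707 called genes (98.0%) the 6 libraries did not overlap between the groups, where 59.6% of all genes tested did not overlap, and in 11701 all 3 ERF115-SRDX libraries lay on the same side of the WT mean. Without ERF115-SRDX 2, 10701 genes (45.8% of those tested) were called, 10433 of them among the 11707 (89.1% of these). With the photosynthetic covariate 5535 (47.3%) were called again. That covariate is itself lower in every ERF115-SRDX library than in every WT library, so it shares part of its variation with the comparison. Among genes with a log2 change of at least 1, 1259 of 1476 that rose (85.3%) and 1465 of 2599 that fell (56.4%) were called with the covariate.

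ERF115-SRDX 2 stood apart in a limited set of genes. It lay more than 1 log2 unit above the mean of ERF115-SRDX 1 and 3 in 875 genes and more than 1 below it in 159. LOX2, a chloroplast lipoxygenase of jasmonate synthesis, showed the widest gap, at 0, 935 and 1.98 in ERF115-SRDX and at 118, 1298 and 166 in WT. ARGAH2, an arginase, was at 0, 148 and 0 against 445, 481 and 360 in WT. In the other direction AT1G58684 was at 141, 8.35 and 943 in ERF115-SRDX, so that all 3 libraries differed among themselves. These genes were picked for the gap and were not tested for it.

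**Figure D2:**
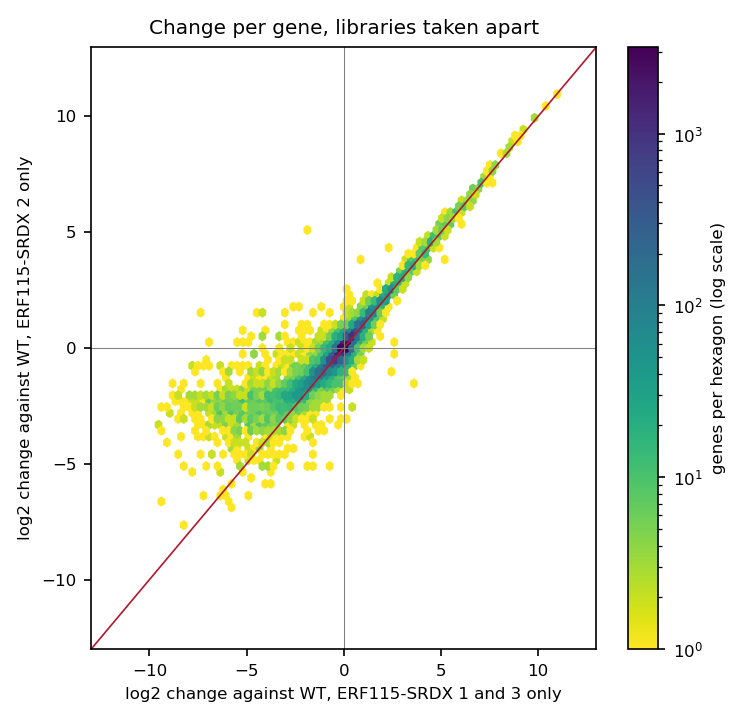
Log2 change against WT computed with ERF115-SRDX 2 alone (vertical axis) against that computed with ERF115-SRDX 1 and 3 (horizontal axis), for the 23375 genes tested, coloured by the number of genes per hexagon. Most genes lie along the diagonal, and the 875 genes that were over 1 log2 unit higher in ERF115-SRDX 2 lie above it, mostly on the left among genes lower than WT.

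Reading the gene lists against these shares shows where members moved together. In the camalexin, salicylate, pattern recognition, mitochondrial stress, phenylpropanoid and glutathione S-transferase lists most members rose. In the wound and regeneration, root cap, aquaporin and xyloglucan endotransglucosylase lists most members fell. Many other lists split, among them the jasmonate list with 9 of 23 tested members higher and 9 lower, the class III peroxidases with 17 of 68 higher and 19 lower, and the cytochrome P450 genes with 63 of 193 higher and 73 lower. Of 306 ribosomal protein genes 32 rose and 38 fell, which is 22.9% called beside 50.1% of all genes. The sizes were uneven, as 32 of the falls and 0 of the rises reached a log2 change of at least 1 in size. Leaving out single libraries gave 12 to 56 ribosomal protein genes higher, 12 without WT 3, 15 without ERF115-SRDX 3, 20 without ERF115-SRDX 1 and 56 without WT 2.

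**Figure D3:**
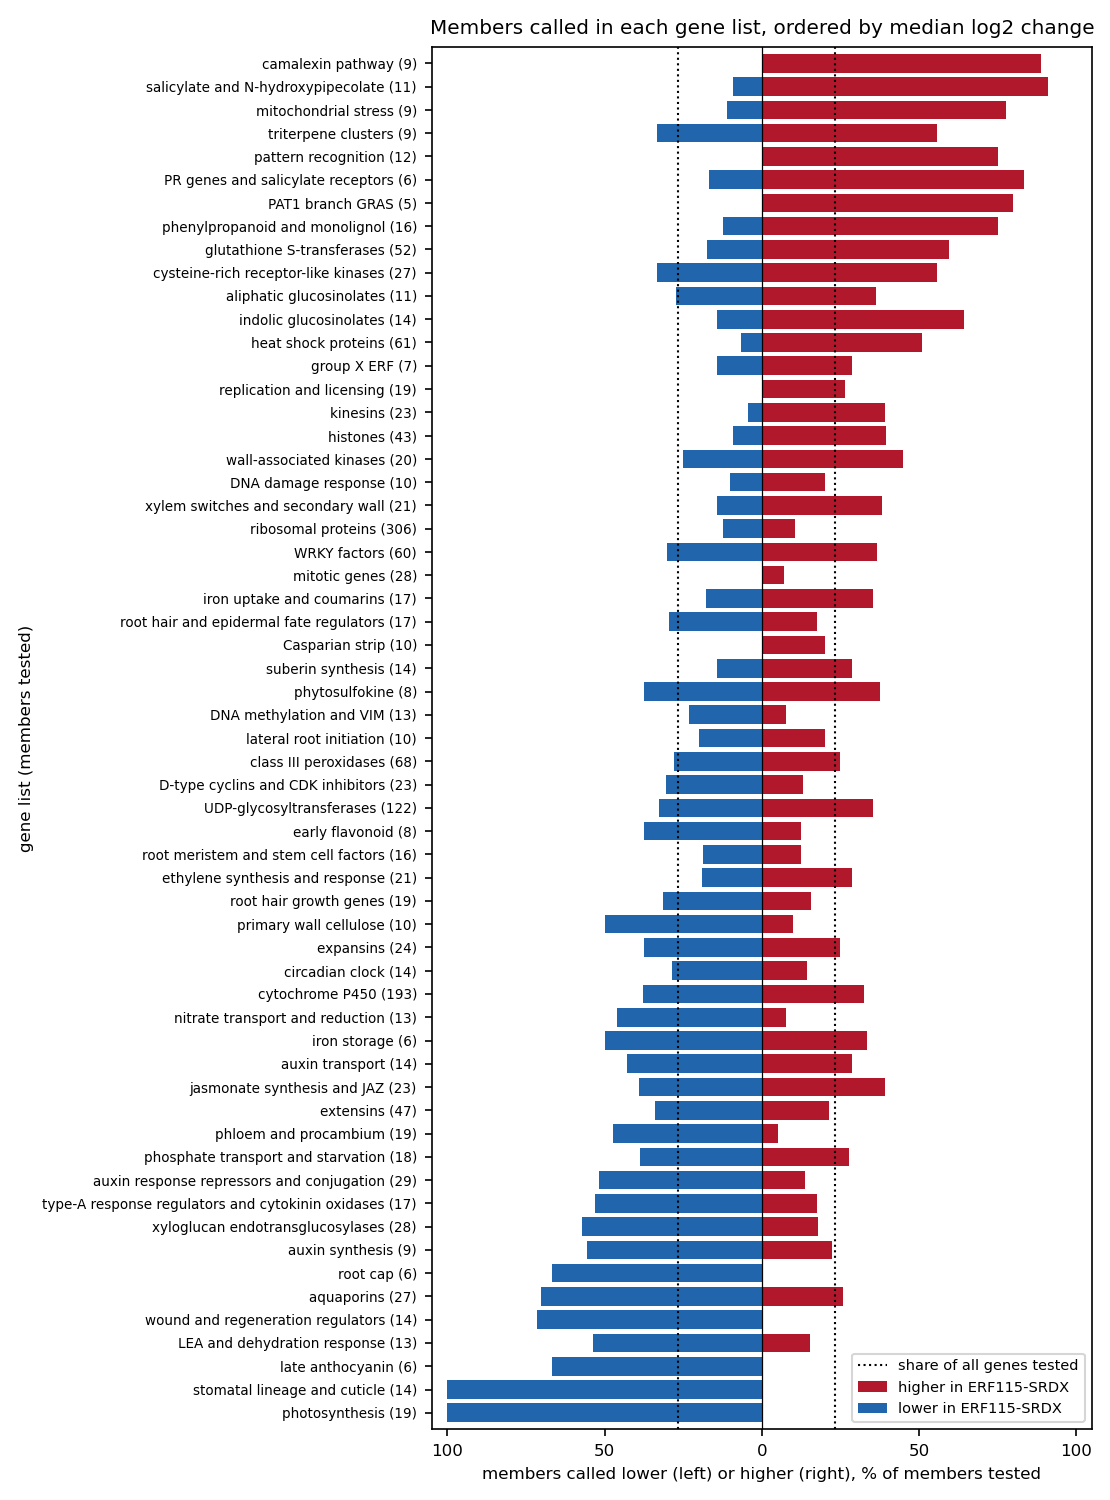
Share of tested members called higher (right, red) or lower (left, blue) in ERF115-SRDX than in WT for each gene list, in % of members tested, ordered by median log2 change. The dotted lines mark 23.4% higher and 26.6% lower, the shares over all genes tested; camalexin and salicylate genes stand at the top, and photosynthesis and stomatal genes at the bottom.

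Genes of the circle around ERF115 moved in both directions. Of 7 group X ERF genes tested 2 rose, ERF115 itself among them, and 1 fell, which is 42.9% called beside 50.1% of all genes. RAP2.6L, a group X factor tied to wounding and shoot regeneration, was at 1221, 1319 and 1389 in WT and at 2713, 2707 and 2431 in ERF115-SRDX. The groups did not overlap, and the log2 change was 1.00 ± 0.080 (SE, n = 3 per group, limma adjusted p = 4.67e-07). RAP2.6 went the other way, from 513, 460 and 602 in WT to 185, 189 and 194, a log2 change of -1.46 ± 0.16 (limma adjusted p = 9.82e-06). ERF112, ERF114, ABR1 and RRTF1 were not called, with log2 changes of 0.20, 0.15, 0.25 and 0.19, and ERF110 was at 0 in all 6 libraries and was not tested. ERF115 had a log2 change of 10.95 ± 1.14 (limma adjusted p = 5.08e-06). Its level in ERF115OX was 34638, 38360 and 36973, below each ERF115-SRDX library. The direct contrast of the lines gave 1.22 ± 1.14 on the log2 scale with a limma adjusted p of 0.385, in a fit that shares 1 error per gene over all groups, the uneven WT libraries included.

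Phytosulfokine is a small sulfated peptide hormone, and of its 8 genes tested 3 rose and 3 fell. The receptor gene PSKR1 was at 2972, 3336 and 3420 in WT and at 10097, 10551 and 9252 in ERF115-SRDX. Every ERF115-SRDX library was above every WT library, and the log2 change was 1.62 ± 0.064 (limma adjusted p = 8.74e-10). In ERF115OX the mean was 3458, close to WT, and the direct contrast of ERF115-SRDX with ERF115OX gave a log2 difference of 1.52. The ligand precursor PSK4 also rose, from 2122, 2612 and 2966 to 5513, 6011 and 5141. PSK5, the known target of ERF115, fell from 302, 294 and 274 to 142, 143 and 145, a log2 change of -1.01 ± 0.076 (limma adjusted p = 2.60e-07). Its value in ERF115-SRDX 3 implied 146.77 reads, the only value above 0 that was not a whole number of reads. The reason was not tested, and the PSK5 call held when any single library was left out. PSK1 fell from 519, 604 and 533 to 200, 167 and 191, a log2 change of -1.57 ± 0.095 (limma adjusted p = 3.85e-08). The ERF115OX means were 1333 for PSK5 and 1028 for PSK1, and ERF115-SRDX lay below ERF115OX by a log2 difference of -3.21 for PSK5 and -2.47 for PSK1. The groups overlapped for PSK2 and PSK3, with log2 changes of -0.59 and 0.39. The call of PSK2 was lost without ERF115-SRDX 1, WT 1 or WT 3, and that of PSK3 without ERF115-SRDX 2, ERF115-SRDX 3, WT 2 or WT 3. The second receptor gene PSKR2 and TPST, the enzyme that sulfates the peptide, were not called, with log2 changes of -0.03 and 0.06.

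The GRAS genes of the PAT1 branch, which encode partners of ERF115, rose in 4 of 5 cases. PAT1 was at 2413, 2447 and 2331 in WT and at 5589, 5654 and 5142 in ERF115-SRDX, with no overlap and a log2 change of 1.19 ± 0.048 (limma adjusted p = 1.09e-09). In ERF115OX its mean was 2528, below every ERF115-SRDX library. SCL5, SCL13 and SCL1 rose less, by log2 changes of 0.52, 0.51 and 0.26, and SCL21 was not called at -0.02.

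Regulators of wound response and regeneration fell in 10 of 14 tested cases and rose in none, where 26.6% of all genes fell. Their median log2 change was -0.63 against a median of -0.0011 over all genes tested. WIND1, which promotes callus at wounds, was at 7132, 7746 and 7090 in WT and at 3073, 3045 and 2965 in ERF115-SRDX. The groups were well apart, and the log2 change was -1.27 ± 0.046 (limma adjusted p = 4.43e-10). Its relative WIND2 fell from 1592, 1520 and 1476 to 980, 949 and 997, a log2 change of -0.65 ± 0.047 (limma adjusted p = 1.78e-07). The auxin response factor MP fell by 0.61 on the log2 scale, and the PLETHORA factors PLT5 and PLT7 had log2 changes of -0.94 and -0.91. The boundary factor CUC2 fell from a low level of 32.1, 32.2 and 33.9 in WT to 10.1, 10.4 and 15.8. The NAC factor ANAC096 fell from 63.2, 88.8 and 83.7 to 26.2, 29.2 and 29.7. WOX11, a starter of adventitious roots, fell by 0.76 on the log2 scale at 64.4 normalized counts or fewer, and its call was lost without WT 1 or WT 2, under quantile scaling, with the covariate, with ERF115-SRDX 2 alone and in the fit of only the 2 groups. The call of CUC2 was lost under quantile scaling and with the covariate. Against ERF115OX 12 of the 14 were lower in ERF115-SRDX and none higher, with a median log2 difference of -1.05, where 29.6% of all genes were lower in that contrast.

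XTH20, a wall enzyme of wound tissue reunion, differed most from ERF115OX among these 14. It was at 739, 588 and 449 in WT and at 445, 471 and 410 in ERF115-SRDX, groups that overlapped, with a log2 change of -0.39 ± 0.13 (limma adjusted p = 0.0232). In ERF115OX it was at 7717, 7478 and 7514, and the direct contrast gave -4.10. The call against WT was lost when ERF115-SRDX 1, ERF115-SRDX 3, WT 1 or WT 2 was left out. Its relative XTH19 fell from 3782, 3838 and 3854 to 2859, 2905 and 2764. HSFB1, PLT3 and WOX12 were not called, with log2 changes of -0.09, -0.31 and -0.26. With the photosynthetic covariate 7 of the 14 were called lower.

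Root cap genes fell in 4 of 6 tested cases, with a median log2 change of -0.49, which was -0.36 without ERF115-SRDX 2 and -0.63 with ERF115-SRDX 2 alone. RCPG, a pectin-degrading enzyme of shedding root cap cells, was at 852, 816 and 679 in WT and at 373, 343 and 385 in ERF115-SRDX, a log2 change of -1.09 ± 0.15 (limma adjusted p = 5.97e-05). BRN2, a NAC regulator of cap maturation, fell by 0.60 on the log2 scale. When 1 library at a time was left out, 2 to 4 of the 6 were called lower. Of 16 factors of the root meristem and stem cell niche 2 rose and 3 fell, which is 31.25% called beside 50.1% of all genes. Among them BRAVO, a MYB factor that holds back division of the quiescent centre, rose from 151, 129 and 125 to 209, 264 and 253. The ground tissue zinc finger gene MGP rose from 1075, 1144 and 996 to 1623, 1619 and 1653, and its relative NUC fell from 1080, 1073 and 1022 to 673, 721 and 617.

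The largest rises came from genes that were nearly silent in WT. The 12 largest, ERF115 included, had log2 changes of 8.80 to 10.95, which became 9.51 to 12.80 when WT 3 was left out. WAK3, a wall-associated receptor kinase, was at 0, 0 and 33.9 in WT and at 4713, 4870 and 3476 in ERF115-SRDX. PNP-A, a natriuretic peptide, was at 9.72, 3.90 and 99.6 in WT and at 13628, 16596 and 15944. In both, WT 3 was the highest WT library and lay far below the lowest ERF115-SRDX library. WRKY55 was at 0.972, 0 and 9.96 in WT and at 1565, 1518 and 1365 in ERF115-SRDX. AOX1D, an alternative oxidase of mitochondria, was at 7.78, 13.7 and 53.8 in WT and at 9757, 9977 and 8514. The others were CYP71A13, AT2G29250, AT3G55790, AT1G55230, AT1G51920, AT1G61610 and AT1G26240, and in ERF115OX each of these 11 genes other than ERF115 was at 6.20 or below in all 3 libraries.

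Camalexin is the main indole phytoalexin of Arabidopsis, and 8 of 9 genes of its pathway rose with a median log2 change of 3.07. CYP71A12, a cytochrome P450 acting on indole acetaldoxime, was at 256, 430 and 729 in WT and at 88918, 91035 and 73093 in ERF115-SRDX. Its log2 change was 7.60 ± 0.29 (limma adjusted p = 6.97e-10), with WT 3 again the highest WT library. CYP71A13, its close relative, rose from 0, 4.88 and 16.9 to 2475, 2542 and 1953. The pair is similar in sequence, so how reads were divided between them is uncertain. PAD3, which makes camalexin in the last step, was at 553, 571 and 675 in WT and at 39633, 40263 and 33959, a log2 change of 5.98 ± 0.17 (limma adjusted p = 7.93e-11). WRKY33, the transcription factor that activates the pathway, rose from 1704, 1921 and 1936 to 10284, 10275 and 9664. CYP79B2, which feeds both camalexin and indolic glucosinolates, rose from 9259, 9207 and 8482 to 23491, 22077 and 20083, while CYP79B3 was not called at a log2 change of 0.13. GGP1, which processes the glutathione adduct, rose by 0.77. The glutathione step genes GSTF6 and GSTU4 rose by log2 changes of 3.32 and 3.07, GSTF6 having a near-identical neighbour in its family. With the covariate, and also without WT 3 and ERF115-SRDX 2, 8 of the 9 were called higher, and against ERF115OX 8 of the 9 were higher in ERF115-SRDX.

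Salicylate and N-hydroxypipecolate are the signals of systemic immunity, and 10 of 11 genes of their synthesis and control rose with a median log2 change of 1.66. FMO1, which makes N-hydroxypipecolate, was at 64.2, 83.9 and 76.7 in WT and at 8108, 8486 and 6287 in ERF115-SRDX. The log2 change was 6.65 ± 0.26 (limma adjusted p = 7.90e-10), and in ERF115OX the gene was at 4.03, 7.12 and 10.3. CBP60G, a transcription factor of salicylate synthesis, rose from 52.5, 72.2 and 78.7 to 4460, 3668 and 3259. ICS1, the isochorismate synthase that starts salicylate synthesis, rose from 507, 511 and 615 to 1623, 1677 and 1394, a log2 change of 1.52 ± 0.11 (limma adjusted p = 2.30e-07). EDS5, the exporter of its product, and PBS3, the enzyme after it, rose by log2 changes of 1.94 and 4.08. The immune regulators EDS1, PAD4 and SAG101 rose by 1.38, 1.66 and 1.91. ALD1, which starts the pipecolate branch, was the exception and fell from 173, 200 and 180 to 62.5, 57.4 and 65.2. SARD4 rose by 0.92, and SARD1, a relative of CBP60G, by 0.37.

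Of 6 tested genes of salicylate response and perception 5 rose and 1 fell, 3 of the 5 being receptors. PR1, the usual marker of salicylate response, was at 0 in all 6 libraries and was not tested. PR2 and PR5, also not tested, were near the floor in WT, PR2 at 0, 0 and 0 in WT and at 8.06, 23.0 and 65.2 in ERF115-SRDX, and PR5 at 1.94, 0 and 3.98 against 3.02, 2.09 and 13.8. WRKY70 rose from 328, 408 and 471 to 1655, 1435 and 1702, and NIMIN2, a protein that binds NPR1, by a log2 change of 1.20. Of the salicylate receptors NPR3, NPR4 and NPR1 rose by 0.76, 0.31 and 0.16. The NPR1 call was lost when WT 1, WT 2, ERF115-SRDX 1 or ERF115-SRDX 2 was left out. It was also lost with edgeR, under TMM and quantile scaling, with a replicate block and in the fit of only the 2 groups. With the photosynthetic covariate neither NPR1 nor NPR4 was called. WRKY38 fell from 68.0, 85.8 and 81.7 to 20.2, 25.1 and 21.7.

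Genes of pattern recognition rose in 9 of 12 cases and fell in none, with a median log2 change of 0.86. FRK1, a kinase gene widely used to mark this response, was at 74.8, 64.4 and 56.8 in WT and at 1573, 1730 and 1331 in ERF115-SRDX, a log2 change of 4.54 ± 0.22 (limma adjusted p = 5.50e-09). EFR, the receptor for bacterial elongation factor, rose from 166, 160 and 174 to 628, 634 and 565. The co-receptor SOBIR1, the oxidase RBOHD, the kinase MPK3 and the receptor-associated kinase BIK1 rose by log2 changes of 1.66, 1.15, 0.98 and 0.75. All 4 were expressed at 1612 normalized counts or more in each WT library, and their groups did not overlap.

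The large receptor and WRKY families split. Of 60 WRKY genes 22 rose and 18 fell. WRKY8 rose from 44.7, 56.6 and 57.8 to 2497, 2404 and 2305, whereas WRKY57 fell from 968, 854 and 1020 to 175, 147 and 184, and WRKY42 fell by 2.13 on the log2 scale. In ERF115OX the mean of WRKY57 was 2175, and the direct contrast gave -3.68. Of 20 wall-associated kinases 9 rose and 5 fell, with WAKL10 higher by a log2 change of 8.38 and WAKL6 lower by -1.71. Of 27 cysteine-rich receptor-like kinases 15 rose and 9 fell. CRK11 rose from 774, 921 and 1072 to 11248, 12533 and 10401, CRK36 rose from 31.1, 25.4 and 29.9 to 1669, 1723 and 1584, and CRK29 fell from 2423, 2383 and 2518 to 649, 684 and 661.

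**Figure D4:**
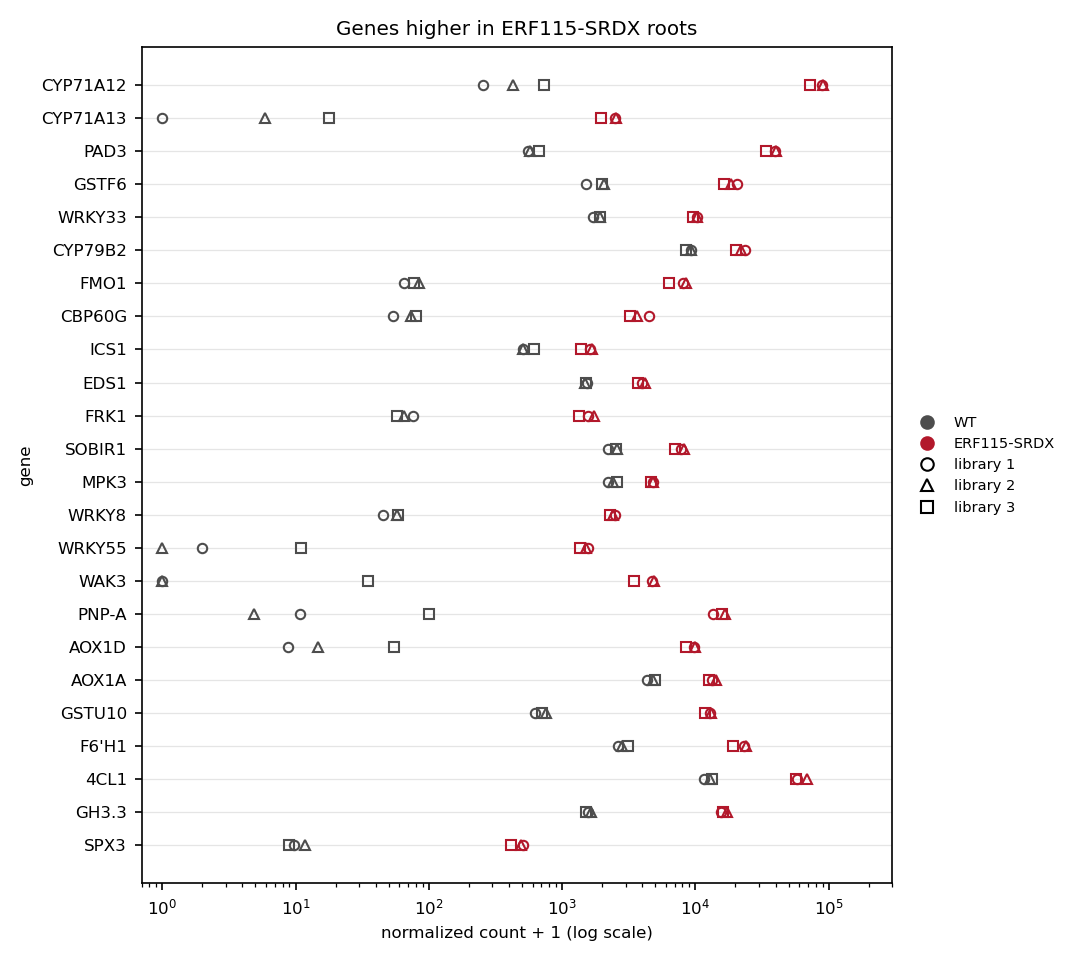
Normalized counts + 1 (log scale) of 24 genes that rose, 1 symbol per library (circle 1, triangle 2, square 3), with WT in grey and ERF115-SRDX in red. In every gene shown the lowest ERF115-SRDX library lies above the highest WT library. The WT 3 square lies to the right of the other WT symbols in several genes, among them WAK3, PNP-A, AOX1D, WRKY55, CYP71A12 and CYP71A13.

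Markers of mitochondrial stress rose in 7 of 9 cases and fell in 1, with a median log2 change of 1.26. AOX1A, the main alternative oxidase, was at 4308, 4813 and 5001 in WT and at 13326, 14382 and 12569 in ERF115-SRDX, a log2 change of 1.51 ± 0.066 (limma adjusted p = 2.06e-09). NAC013, a transcription factor of this retrograde response, rose by 1.26, and the alternative dehydrogenase NDB2 by 1.19. OM66, an outer membrane AAA protein, rose from 278, 328 and 295 to 1251, 1297 and 1284, and UPOX rose by a log2 change of 1.69. UGT74E2, an auxin glucosyltransferase often counted among these markers, fell by 0.69 on the log2 scale. Glutathione S-transferases, which detoxify reactive compounds, rose in 31 of 52 cases and fell in 9. GSTU10 rose from 624, 757 and 703 to 12776, 13066 and 11824, and GSTF2 from 4865, 5945 and 4808 to 61748, 60983 and 56477. GSTU5 fell from 1421, 1406 and 1488 to 315, 450 and 363. Heat shock proteins and factors rose in 31 of 61 cases and fell in 4, 14 and 1 with the covariate. Hsp70-2 rose from 1329, 1737 and 1270 to 7263, 7747 and 6197, and the small heat shock gene AT2G29500 rose by a log2 change of 2.16.

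Phenylpropanoid and monolignol genes, which supply lignin and coumarins, rose in 12 of 16 cases and fell in 2. 4CL1, which activates cinnamic acids, was at 11635, 12795 and 13411 in WT and at 58377, 68959 and 57240 in ERF115-SRDX, a log2 change of 2.28 ± 0.092 (limma adjusted p = 1.07e-09). Its relative 4CL2 rose by 1.58, and HCT, which commits the path to guaiacyl units, by 0.76, while the lignin alcohol dehydrogenase CAD5 fell by 0.36 on the log2 scale. F6'H1, the entry enzyme of coumarin synthesis, rose from 2617, 2836 and 3106 to 23123, 24198 and 19079, a log2 change of 2.95 ± 0.097 (limma adjusted p = 2.08e-10). The next coumarin enzymes, S8H and CYP82C4, rose by 4.41 and 1.25 from lower levels. Other genes of iron acquisition split. AHA2, the proton pump that acidifies the soil, fell from 112310, 116355 and 113954 to 68521, 76680 and 69336, the coumarin exporter PDR9 fell by 0.79 on the log2 scale, and the ferric reductase FRO2 rose by 0.40. Over the iron uptake and coumarin list 6 of 17 rose and 3 fell.

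Other specialized metabolism split by gene cluster. The thalianol cluster genes THAS1, THAH and THAD, which build a root triterpene, rose by log2 changes of 0.92, 0.99 and 0.98. THAS1 was at 17380, 18943 and 19846 in WT and at 33242, 37707 and 35053 in ERF115-SRDX. The arabidiol genes PEN1 and CYP705A1, of another triterpene route, fell with log2 changes of -0.51 and -0.56. Indolic glucosinolate genes rose in 9 of 14 cases and fell in 2. UGT74B1 and SOT16, which finish the glucosinolate core, rose by 0.95 and 0.87, and the regulator MYB122 by 2.13. The methyltransferases at the end of the pathway fell. IGMT1 was at 3443, 4180 and 4399 in WT and at 355, 433 and 360 in ERF115-SRDX, a log2 change of -3.38 ± 0.13 (limma adjusted p = 6.08e-10), and IGMT2 had one of -1.70. Both belong to a tandem family of similar genes, so the division of reads between them is uncertain. Among aliphatic glucosinolate genes 4 of 11 rose and 3 fell, with the chain-elongating synthase MAM1 lower by -2.44 and the sulfotransferase SOT17 rising from 1094, 948 and 909 to 2194, 2080 and 2032.

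The largest falls, leaving out the photosynthesis and the stomatal lineage and shoot cuticle lists, were mostly of genes in which ERF115-SRDX 2 was higher than its replicates. CA1, the chloroplast carbonic anhydrase, was at 21504, 12992 and 40720 in WT and at 16.1, 3820 and 63.3 in ERF115-SRDX. LHB1B1, a light-harvesting protein, was at 21518, 22504 and 42392 against 21.2, 2912 and 71.2, and AT2G10940 was at 22559, 10924 and 18030 against 18.1, 1320 and 34.6. All 3 ERF115-SRDX libraries still lay below all WT libraries. GER3, LTL1, AT4G28780, AT5G15780, AT1G06360 and Lhca6 also had ERF115-SRDX 2 as the highest of its group, and with the photosynthetic covariate 8 of these 9 were not called, GER3 being the exception. NEET, an iron-sulfur protein, had ERF115-SRDX 2 highest as well, at 423, 294 and 467 in WT and at 0, 9.40 and 1.98 in ERF115-SRDX, and it was called with the covariate.

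Among the 12 largest falls outside those lists AT1G07887 and EARLI1 had ERF115-SRDX 2 within 1 log2 unit of its replicates. AT1G07887, annotated as a non-coding RNA, was at 1965, 2021 and 1965 in WT and at 16.1, 8.35 and 1.98 in ERF115-SRDX. The 12 steepest falls outside those lists were then picked, after their values were seen, from called genes whose groups did not overlap. Each gene also had to average 500 or more in WT, with ERF115-SRDX 2 within 1 log2 unit of its replicates. These 12 genes fill a set number, and they fell in all 3 libraries because the conditions required it. They included the lipid-transfer family genes EARLI1 and AZI1, the defensin-like gene AT3G59930, CYP72A14, the lupeol synthase LUP1, the glutaredoxin GRXS13, the cytokinin oxidase CKX4, AT2G45220, MLP28 and CYP71B34. EARLI1 was at 2320, 1945 and 2097 in WT and at 4.03, 27.2 and 41.5 in ERF115-SRDX. CYP72A14 was at 3635, 3582 and 3996 against 83.6, 111 and 103, a log2 change of -5.23 ± 0.10 (limma adjusted p = 7.28e-12). In 10 of the 12 ERF115-SRDX was also below ERF115OX, with log2 differences of -7.77 to -3.79. The exceptions were AT1G07887 and MRD1. AT1G07887 was at 4.03, 10.2 and 6.20 in ERF115OX but at a mean of 2678 in ERF114OX, and MRD1 was at 14.1, 26.4 and 17.6 in ERF115OX, at a mean of 2706 in ERF114OX and at 41.3, 30.3 and 31.6 in ERF115-SRDX against 2009, 2075 and 1987 in WT.

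**Figure D5:**
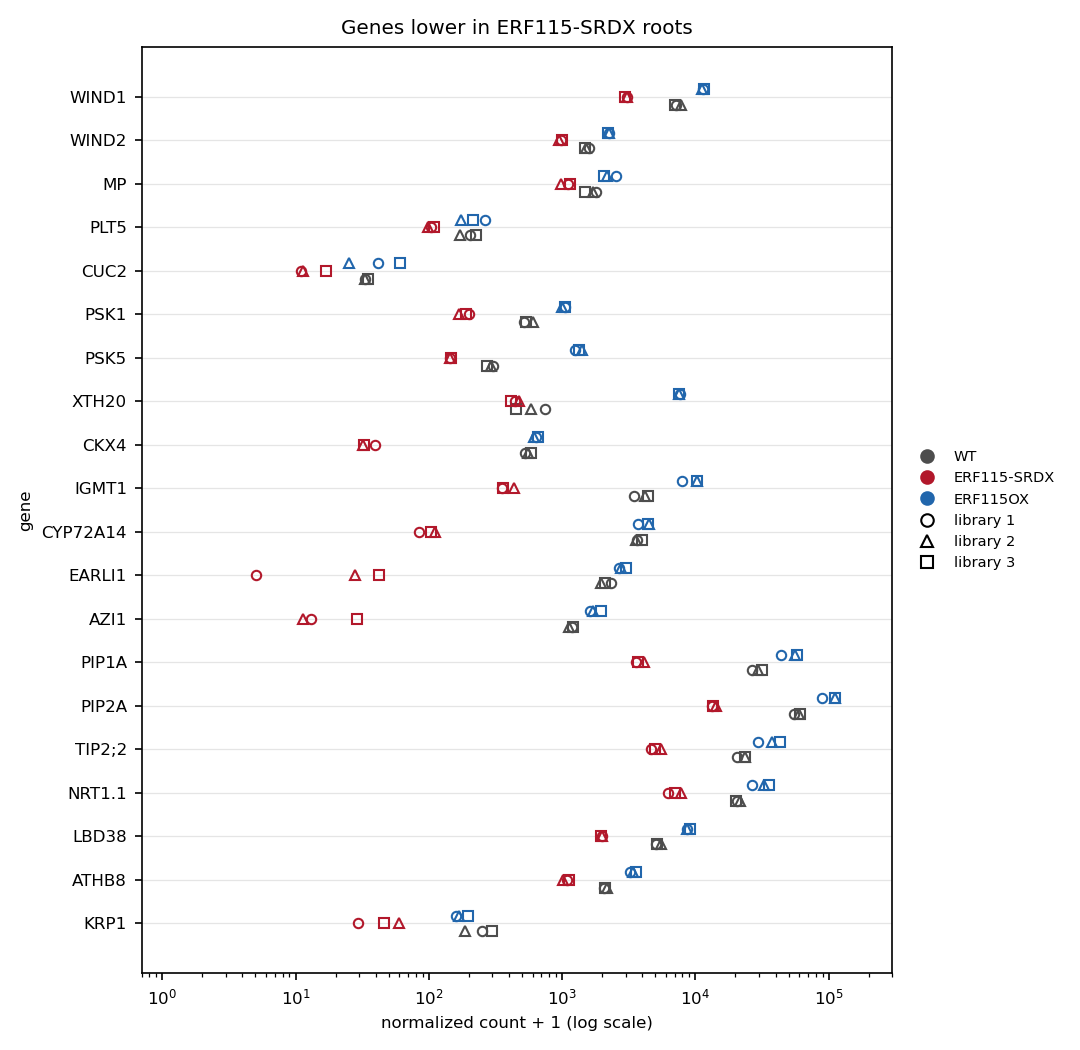
Normalized counts + 1 (log scale) of 20 genes that fell, 1 symbol per library (circle 1, triangle 2, square 3), with WT in grey, ERF115-SRDX in red and ERF115OX in blue. Apart from XTH20, where WT 3 at 449 lies among the ERF115-SRDX libraries, the red symbols lie to the left of all grey and blue ones.

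Aquaporins, which let water cross membranes, fell in 19 of 27 cases and rose in 7, with a median log2 change of -0.63. PIP1A, a plasma membrane channel, was at 26724, 29565 and 31674 in WT and at 3577, 4146 and 3688 in ERF115-SRDX, a log2 change of -2.95 ± 0.11 (limma adjusted p = 5.61e-10). PIP2A fell from 55349, 60089 and 60947 to 13309, 14293 and 13581, and TIP2;2, a vacuolar channel, fell by 2.16 on the log2 scale. All 3 were higher in ERF115OX than in ERF115-SRDX, with log2 differences of -3.78, -2.92 and -2.85 in the direct contrast of ERF115-SRDX with ERF115OX. PIP2;4 and NIP6;1 rose by log2 changes of 0.54 and 0.88. With the photosynthetic covariate 8 aquaporins were called lower and 5 higher.

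Nutrient transport changed gene by gene. Of 13 nitrate genes 6 fell and 1 rose. NRT1.1, the nitrate transporter and sensor, was at 20511, 21470 and 20326 in WT and at 6282, 7810 and 7083 in ERF115-SRDX, a log2 change of -1.56 ± 0.098 (limma adjusted p = 5.10e-08). NRT1.5, which loads nitrate into the xylem, fell from 36680, 45921 and 39074 to 12239, 12258 and 13940, and the nitrate-responsive repressor LBD38 from 5096, 5553 and 5180 to 1986, 2005 and 1948. NRT2.1 and NRT1.8 had log2 changes of -1.21 and -1.61, while WR3, the partner protein of NRT2.1, rose by 0.67. Of 18 phosphate genes 5 rose and 7 fell, with 3 to 5 higher when single libraries were left out. SPX3, a phosphate-starvation gene, rose from 8.75, 10.7 and 7.97 to 509, 493 and 413, a log2 change of 5.54 ± 0.28 (limma adjusted p = 8.69e-09), and its relative SPX1 and the transporter PHT1;9 rose by 0.71 and 2.41. PHO1, which loads phosphate into the xylem, fell from 13419, 15414 and 13736 to 5868, 5746 and 6325. The uptake transporters PHT1;1 and PHT1;2 fell, with log2 changes of -0.85 and -2.08, and these are neighbouring, near-identical genes between which reads may have been split. PHO2, which marks phosphate transporters for degradation, fell by 0.54.

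Dehydration-response genes fell in 7 of 13 cases and rose in 2, with a median log2 change of -0.66. The median was -0.62 without ERF115-SRDX 2 and -0.11 with ERF115-SRDX 2 alone, 4 were called lower with the covariate, and leaving out single libraries gave 1 to 3 higher. RD29A was at 2583, 2400 and 2747 in WT and at 1076, 1101 and 1066 in ERF115-SRDX. RD22 and KIN2, which has a near-identical neighbour, fell with log2 changes of -1.95 and -0.66, while the upstream factor DREB2A rose by 0.48. Late anthocyanin genes fell in 4 of 6 cases but were at low and uneven levels. UGT75C1, an anthocyanin glucosyltransferase, was at 152, 165 and 227 in WT and at 44.3, 65.8 and 72.2 in ERF115-SRDX. 5MAT, a malonyltransferase of the same pathway, was at 15.6, 40.0 and 94.6 against 0, 10.4 and 0.

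Of 29 auxin response repressors and conjugating enzymes 15 fell and 4 rose. The steepest change went the other way. GH3.3, which conjugates auxin to amino acids, was at 1558, 1645 and 1523 in WT and at 15689, 17182 and 16100 in ERF115-SRDX, a log2 change of 3.37 ± 0.063 (limma adjusted p = 7.28e-12). Its mean in ERF115OX was 1118. GH3.17, another conjugating enzyme, fell by 0.80 on the log2 scale, and the repressors IAA2 and IAA14 fell with log2 changes of -1.32 and -1.24, while IAA18 rose by 0.61. Synthesis genes split, with TAA1 and YUC8 lower by -0.57 and -1.01 and YUC6 and YUC9 higher by 0.94 and 0.97. Of the transporters PIN3, PIN4, AUX1 and LAX1 fell with log2 changes of -0.50, -0.57, -0.41 and -0.85, and LAX3 rose by 0.46. Lateral root factors split too, as LBD16 fell by 0.93 and LBD29 and PUCHI rose by 1.36 and 0.85.

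Cytokinin feedback genes fell in 9 of 17 cases and rose in 3, and 1 was higher when ERF115-SRDX 1 was left out. CKX4, a cytokinin oxidase, fell from 522, 558 and 588 to 38.3, 31.3 and 31.6, a log2 change of -4.01 ± 0.10 (limma adjusted p = 3.45e-11). CKX5 rose by 0.78, and the response regulator ARR9 fell by 0.75 on the log2 scale. With the covariate 5 of the 17 were called lower and 1 higher. Among ethylene genes 6 of 21 rose and 4 fell, and ACS6, a stress-induced enzyme of ethylene synthesis, rose from 722, 680 and 642 to 3041, 2689 and 2816. The jasmonate repressor genes went apart. JAZ1 and JAZ5 rose by log2 changes of 1.25 and 2.39. JAZ4 fell by 1.33 on the log2 scale, and JAZ9 fell from 369, 374 and 647 to 20.2, 73.1 and 15.8, with ERF115-SRDX 2 above its replicates.

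Mitotic and replication genes showed small changes, with 7.14% and 26.3% called beside 50.1% of all genes. Of 28 mitotic genes 2 rose, CYCB3;1 and POK2, by log2 changes of 0.32 and 0.33, and leaving out single libraries gave 0 to 4 higher and 0 to 2 lower. The call of CYCB3;1 was lost without ERF115-SRDX 1, ERF115-SRDX 3, WT 2 or WT 3, and that of POK2 without ERF115-SRDX 1, ERF115-SRDX 3 or WT 3. Of 19 replication and licensing genes 5 rose, the helicase subunits MCM2 and MCM5, the helicase partner ETG1, the polymerase gene ICU2 and the sliding clamp gene PCNA2, by 0.24 to 0.33, and none was called with the covariate. Leaving out single libraries gave 3 to 8 higher, the call of MCM5 being lost without ERF115-SRDX 1 and that of PCNA2 without ERF115-SRDX 1 or WT 3. Against ERF115OX the same lists stood further apart, with 15 of 28 mitotic genes and 12 of 19 replication genes higher in ERF115-SRDX and 1 mitotic gene lower, where 26.4% of all genes were higher in that contrast. POK2, a kinesin that guides the division plane, was at 1221, 1158 and 1074 in WT, at 1486, 1385 and 1464 in ERF115-SRDX and at 639, 610 and 562 in ERF115OX. Of 23 kinesins 9 rose and 1 fell, where 23.4% of all genes rose and 26.6% fell. Leaving out single libraries gave 6 to 7 kinesins higher, and the covariate 2. ATK5, another kinesin, rose from 1380, 1634 and 1371 to 2833, 2766 and 2727. Of 23 D-type cyclins and CDK inhibitors 3 rose and 7 fell. Leaving out single libraries gave 1 to 3 higher and 5 to 7 lower, and the covariate 1 lower. The largest called change in these lists was in KRP1, an inhibitor of cyclin-dependent kinases. It fell from 251, 185 and 295 to 28.2, 58.5 and 45.5, a log2 change of -2.48 ± 0.25 (limma adjusted p = 3.47e-06).

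Markers of cell types inside the root moved modestly. Phloem and procambium genes fell in 9 of 19 cases and rose in 1, where 26.6% of all genes fell and 23.4% rose. ATHB8, a procambium factor, fell from 2078, 2181 and 2084 to 1087, 1019 and 1123, and it was at a mean of 3408 in ERF115OX. T5L1 and PEAR1, which promote divisions in vascular tissue, fell with log2 changes of -0.83 and -0.77, while TMO5 rose by 0.57. Xylem and secondary wall genes rose in 8 of 21 cases and fell in 3, with a median log2 change of 0.11, where 23.4% of all genes rose. The switch VND7 fell, at -0.97, and so went against most called members of this list. Root hair growth genes fell in 6 of 19 cases and rose in 3 against WT, where 26.6% of all genes fell. Against ERF115OX 16 of the 19 were lower in ERF115-SRDX and 1 higher, where 29.6% of all genes were lower. RHS18, a root hair peroxidase, was at 568, 557 and 637 in WT, at 377, 316 and 406 in ERF115-SRDX and at 1484, 1376 and 1351 in ERF115OX. RHS15 and ROP2 fell with log2 changes of -0.59 and -0.31, and RHS2 rose by 0.36. The epidermal fate regulator TRY rose from 13.6, 26.3 and 12 to 98.8, 58.5 and 79.1, and the hair regulator RSL2 fell by 0.61. Casparian strip genes were called in 2 of 10 cases, both higher, and suberin genes in 6 of 14, with 4 higher and 2 lower. Each list thus had a smaller share called than all genes, of which 50.1% were called. Leaving out single libraries gave 1 to 2 Casparian strip genes higher and 1 to 3 suberin genes lower.

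Xyloglucan endotransglucosylases fell in 16 of 28 cases and rose in 5, with a median log2 change of -0.38, and XTH33 fell from 167, 185 and 210 to 46.4, 36.5 and 35.6 while XTR6 rose by 1.36. With the covariate 6 were called lower and 6 higher. Expansins fell in 9 of 24 cases and rose in 6. EXPB3 rose from 2722, 2811 and 1989 to 7109, 7773 and 7551, and EXLB1 fell by 1.98 on the log2 scale. Among peroxidases PER4 rose from 1642, 1798 and 1865 to 12874, 12133 and 10331, and AT4G37520 fell from 10967, 11664 and 12529 to 1816, 1908 and 1777. Primary wall cellulose synthesis genes fell in 5 of 10 cases and rose in 1, and leaving out single libraries gave 2 to 4 lower and 0 higher.

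Members of the clock, chromatin and flavonoid lists split as well. Of 14 circadian clock genes 2 rose and 4 fell, with the morning factor LHY higher by a log2 change of 0.83 and PRR7 lower by -1.37, and PRR7 was at 4192, 4063 and 5047 in WT against 1673, 1786 and 1680. DNA methylation genes were called in 4 of 13 cases (30.8%) and DNA damage response genes in 3 of 10 (30.0%), both below that share of all genes. Histone genes rose in 17 of 43 cases and fell in 4, with 13 to 18 higher and 2 to 3 lower when single libraries were left out. Early flavonoid genes fell in 3 of 8 cases and rose in 1, a gene called in only some of the fits that left out a library. Over all genes the direct contrast of ERF115-SRDX with ERF115OX called 13097 of 23375 (56.0%), 6169 higher and 6928 lower in ERF115-SRDX, and because it shares the ERF115-SRDX libraries with the comparison against WT the counts of both are not independent.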

How the data were processed

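RNA from roots was made into oligo(dT)-selected dUTP libraries, per the labels' protocols. The authors deposited a table of DESeq2 normalized counts (a signal scaled by size factors) for 37884 genes in 12 libraries. The submitters' processing notes name DESeq2, featureCounts (Subread 2.0.1), HISAT2 2.2.1, Trimmomatic 0.39 and SAMtools 1.11. Build, annotation, strand setting and filters were not given in the sources used here, so reads of overlapping antisense genes may be mixed. All but 1 of 316348 values above 0 were whole multiples of each library's value per read within a tolerance of 1e-06, which gave 47242114 to 48343410 reads per library. The exception was PSK5 in ERF115-SRDX 3. Gene names came from the TAIR10.1 RefSeq annotation, in which all 37884 identifiers matched a locus tag.

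Libraries were grouped by their labels. The main test was limma 3.58.1 (R 4.3.3) with an intensity trend on log2(normalized count + 1), with all 4 groups in one fit, genes with a mean of at least 10 over the 12 libraries, and two-sided p-values adjusted by Benjamini-Hochberg at 0.05. Errors are standard errors, n is 3 libraries per group, and the reads carry no molecular identifiers, so depth covers counting error only. The members and gene lists (44 written by locus and 15 by gene name) were chosen with earlier results of these data known. Named genes were all members of the ERF115-related lists, the 12 largest and 12 smallest changes without overlap and with at least 50 normalized counts in the higher group, up to 3 called members per list and direction with the smallest p (any member in lists of up to 20), and the 4 largest gaps of ERF115-SRDX 2 in each direction. Genes named as picked after their values were seen are marked in the text.

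Alternatives were edgeR 4.0.16 and DESeq2 1.42.0 on the recovered reads, TMM and quantile scaling, pseudocounts of 0.5 and 4, other filters, a fit of only the 2 groups, a replicate block, a photosynthetic covariate and left-out libraries. The scripts were checked on simulated counts.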

Additional observations from a re-analysis of the deposited data

How the results depend on the processing

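The count of called genes between ERF115-SRDX and WT stayed within 1.5 times of 11707 under every alternative except the photosynthetic covariate, which called 5758 (3060 higher and 2698 lower), and a required log2 change of at least 1, which called 4075 (1476 higher and 2599 lower). Against ERF115OX the covariate called 7978 (3782 lower), the fold requirement 4178 (1695 higher and 2483 lower), and ERF115-SRDX 2 alone 4457 lower. Of the 358 called list members, 198 were called with the covariate and 138 with the fold requirement. Leaving out 1 library at a time called 10377 to 11068 genes against WT (4743 to 5207 higher, 5605 to 5898 lower), 11630 to 12400 against ERF115OX (5582 to 5979 higher, 6048 to 6677 lower), 320 to 332 list members and 205 to 210 named genes. The recovered reads gave 11557 genes with edgeR and 11767 with DESeq2. Quantile scaling, which moved the median of all genes by 0.057 on the log2 scale, gave 6223 higher and 5570 lower, and TMM 5130 and 6449.

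No pairing by replicate number was seen. Same-numbered WT and ERF115-SRDX libraries deviated from their group means with correlations of -0.070, -0.28 and -0.16, and other pairs with -0.15 to 0.22. Deviations from a mean of 3 libraries are not independent, so these values cannot tell whether libraries shared a batch. A replicate block called 11562 genes.

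Leaving out WT 3 and ERF115-SRDX 2 together, an alternative chosen after seeing the data, called 9791. Of 223 named genes 212 were called, 169 of them in each of the 20 alternatives, and 43 lost the call with the covariate and 17 with ERF115-SRDX 2 alone, a lone library that the fit assumes to vary like those of the other groups. The covariate reversed the sign of LHB1B1 (0.37), CA1 (1.28), Lhca6 (0.40) and RBCS1A (0.29), none of them past the threshold there, and of the uncalled ERF112 (-0.016), ERF114 (-1.09), PSKR2 (0.0020) and SCL21 (0.088). PSKR2 also turned under quantile scaling (0.0070), SCL21 (0.025) and ERF114 (-0.42) with ERF115-SRDX 2 alone, and ERF114 lay between -0.16 and 0.65 with single libraries left out. The causes were not tested. Depth limits genes near 3 reads, such as those at 0 in WT, whose log2 changes depend on the pseudocount.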
